A study of Mus musculus and Homo sapiens with 41 samples.

Results

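H2AK119ub was examined at 10 imprinted mouse genes, Peg10, Sgce, Peg3, Gnas, Mest, Snrpn, Igf2r, Plagl1, Cdkn1c and Grb10, and at their human orthologues, of 21911 mouse and 20007 human protein-coding genes. The genes form a named list that was chosen by results known from these data, above all the covered length near the start sites in untransfected KO and WT stem cells. Peg10 and Sgce start on opposite strands and share a promoter region, so the 10 genes stand for 9 loci. For each gene, the length of DNA inside H2AK119ub peaks was measured within 5 kb to each side of the annotated transcription start site (TSS), called its window here, and over its gene body. The windows of 59 other imprinted mouse genes and 53 human orthologues served for comparison.

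An imprinted gene is expressed mainly from the copy inherited from one parent. The choice is set by an imprinting control region whose DNA is methylated on one parental copy and kept so after fertilization, and the silent copy often carries Polycomb marks. H2AK119ub, ubiquitin on a lysine of histone H2A, is placed by Polycomb repressive complex 1 and removed by the deubiquitylase BAP1, for which MBD6 is a partner protein. TET2 oxidizes 5-methylcytosine in DNA and RNA, and NSUN2 places 5-methylcytosine in RNA.

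CUT&Tag, in which an antibody directs a transposase to cut and tag nearby DNA, was used for H2AK119ub in 39 libraries, 3 for each of 13 groups, and for BAP1 in 2 libraries. Mouse embryonic stem cells (mESCs) were Tet2 knockout (KO) or wild type (WT), without transfection, and in a further experiment KO with siMbd6, KO with siNsun2, KO with control siRNA (siNC) or WT with siNC. Haematopoietic stem and progenitor cells (HSPCs, Lin-c-Kit+ bone marrow cells of mice aged 6 to 8 weeks, cultured with cytokines for 7 days) were KO with shMbd6, KO with control shRNA (shNC) or WT with shNC. Human K-562 cells, an established leukaemia line, were TET2 KO with siMBD6, siNSUN2 or siNC, or WT with siNC. The BAP1 libraries were from WT mESCs. The mESCs and K-562 cells of each genotype are lines, the labels do not say whether the 3 replicates came from separate cultures or animals, and p-values therefore measure the spread between these libraries, which may be technical. The peak lists do not separate the parental alleles, and in such bulk samples fewer cells with the mark and less of the mark per cell cannot be told apart.

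Depth is unknown because the files hold peaks and not reads. Untransfected and WT siNC mESC libraries held 24360 to 37392 peaks, against 4251 to 12139 in the 9 siRNA-treated KO mESC libraries, 1398 to 8286 in HSPCs and 1919 to 4575 in K-562 cells. A stretch outside every peak is listed at 0, whether unmarked or too thinly sequenced. The windows of Pou5f1, Nanog, Sox2, Zfp42, Esrrb and Klf4, markers of mESCs, were covered for 5 of 6 genes in untransfected WT mESCs and 1 of 6 in WT HSPCs, and those of Kit, Spi1, Runx1, Gata2, Cd34 and Ptprc, markers of HSPCs, for 4 of 6 and 1 of 6, which with this mark is no measure of expression.

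The H2AK119ub peaks of Peg10, which encodes a protein derived from a retrotransposon and needed for the placenta, lay inside the gene in every mESC library, downstream of the promoter it shares with Sgce, the gene of epsilon-sarcoglycan. A further peak, over start sites of Sgce transcripts, was found in 1 untransfected KO library. In the mouse the overlapping peaks formed a region at chr6:4747918-4749470 (mm10, 1553 bp, no annotated exon) inside Peg10, which is on the + strand. In K-562 cells the peaks of PEG10 formed a region at chr7:94657854-94658606 (hg38, 753 bp, no annotated exon). The longest string of bases that both regions share on the + strand is 20 bases long. It occurs 1 time in the mouse region, 1.93 kb downstream of the Peg10 TSS, and 4 times in the human region, at a spacing of 45 bases and 1.88 to 2.03 kb downstream of the PEG10 TSS. No other copy was found on either strand of the chromosomes of mm10 or hg38. Peaks of 16 of the 18 mESC libraries, 1 of the 9 HSPC libraries and 12 of the 12 K-562 libraries covered all of these copies. The stretches around them are shown because the peaks of both species meet there, with the shared string in capitals, for the mouse at chr6:4749141-4749390 (mm10, + strand) and for the human at chr7:94658201-94658450 (hg38, + strand).
Peg10: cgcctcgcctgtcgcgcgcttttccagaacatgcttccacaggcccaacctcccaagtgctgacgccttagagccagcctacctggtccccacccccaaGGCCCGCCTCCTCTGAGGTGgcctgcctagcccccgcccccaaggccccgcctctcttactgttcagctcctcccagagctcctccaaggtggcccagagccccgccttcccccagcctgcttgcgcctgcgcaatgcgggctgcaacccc
PEG10: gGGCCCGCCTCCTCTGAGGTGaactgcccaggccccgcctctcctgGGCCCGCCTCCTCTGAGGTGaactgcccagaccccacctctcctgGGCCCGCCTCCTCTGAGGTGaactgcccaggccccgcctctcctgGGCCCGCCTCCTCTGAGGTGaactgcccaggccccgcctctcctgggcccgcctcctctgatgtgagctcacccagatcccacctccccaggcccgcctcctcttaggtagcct

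The 98 bases between the start sites of Sgce and Peg10, at chr6:4747208-4747305 (mm10, + strand), are shown for contrast, with their 13 CpG dinucleotides in capitals. No peak covered them, the nearest being that over the Sgce start sites.
between Sgce and Peg10 starts: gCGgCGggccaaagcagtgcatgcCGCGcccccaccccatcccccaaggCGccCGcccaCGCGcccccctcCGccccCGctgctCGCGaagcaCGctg

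Other members were searched for the letters TGCCGC, the motif of ZFP57, a zinc finger protein that protects methylated imprinting control regions, and AAGATGGC, the core motif of YY1, a zinc finger factor, on both strands. The 2 motifs do not overlap each other. The Peg3 region at chr7:6727351-6728936 (mm10, intronic, + strand shown, Peg3 on the - strand), centred 2287 bp inside the gene, held 8 copies of AAGATGGC. At least 1 copy was held by 15.3% of windows of that length centred on the 41486 mESC regions found in at least 3 libraries, and as many by 0.0458%. A stretch at chr7:6727779-6728028 with 3 copies in capitals is shown.
Peg3: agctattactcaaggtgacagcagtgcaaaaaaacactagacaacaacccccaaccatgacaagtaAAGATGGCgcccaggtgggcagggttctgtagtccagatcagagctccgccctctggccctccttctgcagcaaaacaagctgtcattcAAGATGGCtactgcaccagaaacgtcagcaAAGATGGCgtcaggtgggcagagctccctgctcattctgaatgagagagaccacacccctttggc

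The region at chr17:12742195-12743033 (mm10) was centred 27049 bp inside Igf2r and 1216 bp from the start of Airn, the antisense RNA that silences Igf2r on the paternal copy. It held 3 copies of TGCCGC, of which 2 are in capitals in the stretch at chr17:12742243-12742492 (+ strand; GCGGCA is the motif on the other strand). Windows of the same length held at least 1 copy in 23.3% of regions and at least 3 in 1.2%. Plagl1 had a region over an internal promoter, 30247 bp from the annotated TSS, at chr10:13090317-13091185 (mm10), with 4 copies of TGCCGC, and windows of that length held at least 1 copy in 23.7% of regions and at least 4 in 0.27%. The stretch at chr10:13090415-13090664 (+ strand) shows 1 of them, on the other strand. Most member regions found in at least 3 mouse libraries held no TGCCGC, among them those beside the annotated starts of Cdkn1c, Igf2r and Plagl1. Only that of Peg3 held AAGATGGC. A Grb10 region centred 12539 bp inside the gene held 4 copies of TGCCGC, and at least 4 were in 0.721% of windows of its length. A match describes letters and not bound factor.
Igf2r: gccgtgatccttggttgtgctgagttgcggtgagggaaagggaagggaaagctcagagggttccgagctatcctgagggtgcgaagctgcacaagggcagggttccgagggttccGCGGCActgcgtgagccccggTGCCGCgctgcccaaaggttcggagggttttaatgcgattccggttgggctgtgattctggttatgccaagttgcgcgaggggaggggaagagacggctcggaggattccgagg
Plagl1: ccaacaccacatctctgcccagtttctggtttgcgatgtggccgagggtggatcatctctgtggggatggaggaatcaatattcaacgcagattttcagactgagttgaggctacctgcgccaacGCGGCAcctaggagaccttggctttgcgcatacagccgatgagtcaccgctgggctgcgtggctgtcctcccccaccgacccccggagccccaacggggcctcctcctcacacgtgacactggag

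Of the 10 genes, 7 had promoters in the RefSeq table (mm10), with 16 promoters between them. TGCCGC was in 5 of them (31.2%), against 3813 of all 32851 promoters (11.6%), and AAGATGGC was in 0, against 2.75% of all promoters.

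In untransfected mESCs the windows of Peg10, Peg3, Gnas, Plagl1, Igf2r and Cdkn1c carried peaks in both genotypes. The members were selected with this KO against WT comparison in view, so the members' values are given as a description, with no test of any member. The Peg10/Sgce window held 0.563, 1.48 and 1.45 kb of peaks in KO libraries, against 0.31, 0.374 and 0.383 kb in WT libraries. Every KO library was above every WT library, and in 2 KO libraries the peak began near 0.7 kb from the TSS in place of 1.8 kb. Peg3, a zinc finger gene expressed from the paternal copy, held 1.52, 1.57 and 1.33 kb in KO libraries, against 0.447, 0.776 and 1.42 kb in WT libraries. These values overlapped, since 1 WT library was above 1 KO library.

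Gnas, whose locus encodes the stimulatory G protein alpha subunit and has several imprinted promoters, held 0.859, 0.976 and 0.705 kb in its window in KO mESCs, against 0.234, 0.579 and 0.603 kb in WT mESCs. Plagl1, a zinc finger regulator of growth, held 0.681, 0.809 and 0.731 kb in KO, against 0, 0.64 and 0.665 kb in WT. Both genes were higher in every KO library, as was Peg10/Sgce. Of all 12820 windows, 8.09% had every KO library above every WT library, and 2.80% had every KO library below. Igf2r, the receptor that clears insulin-like growth factor 2, held 0.418, 0.34 and 0.889 kb in KO, against 0.236, 0.517 and 0.505 kb in WT. Cdkn1c, a cyclin-dependent kinase inhibitor, held 0, 0.27 and 1.00 kb in KO, against 0.205, 0.352 and 0.489 kb in WT. For these last genes the groups overlapped. Mest, Grb10 and Snrpn were listed at 0 in this window in all 6 libraries.

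Of the 10 members, 7 passed the filter of coverage in at least 3 libraries. As background, 3 of all 12820 windows (0.0234%) and 0 of these members passed an adjusted p of 0.05 in limma, from which nothing is read about genes chosen on this comparison. Of the covered length of a library, the member windows took 0.345 ± 0.0198 kb per Mb in KO and 0.203 ± 0.0518 kb per Mb in WT (SD, n = 3 each). In total, peaks covered 15.1 ± 3.05 Mb per KO library and 13.7 ± 3.55 Mb per WT library.

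**Figure D1:**
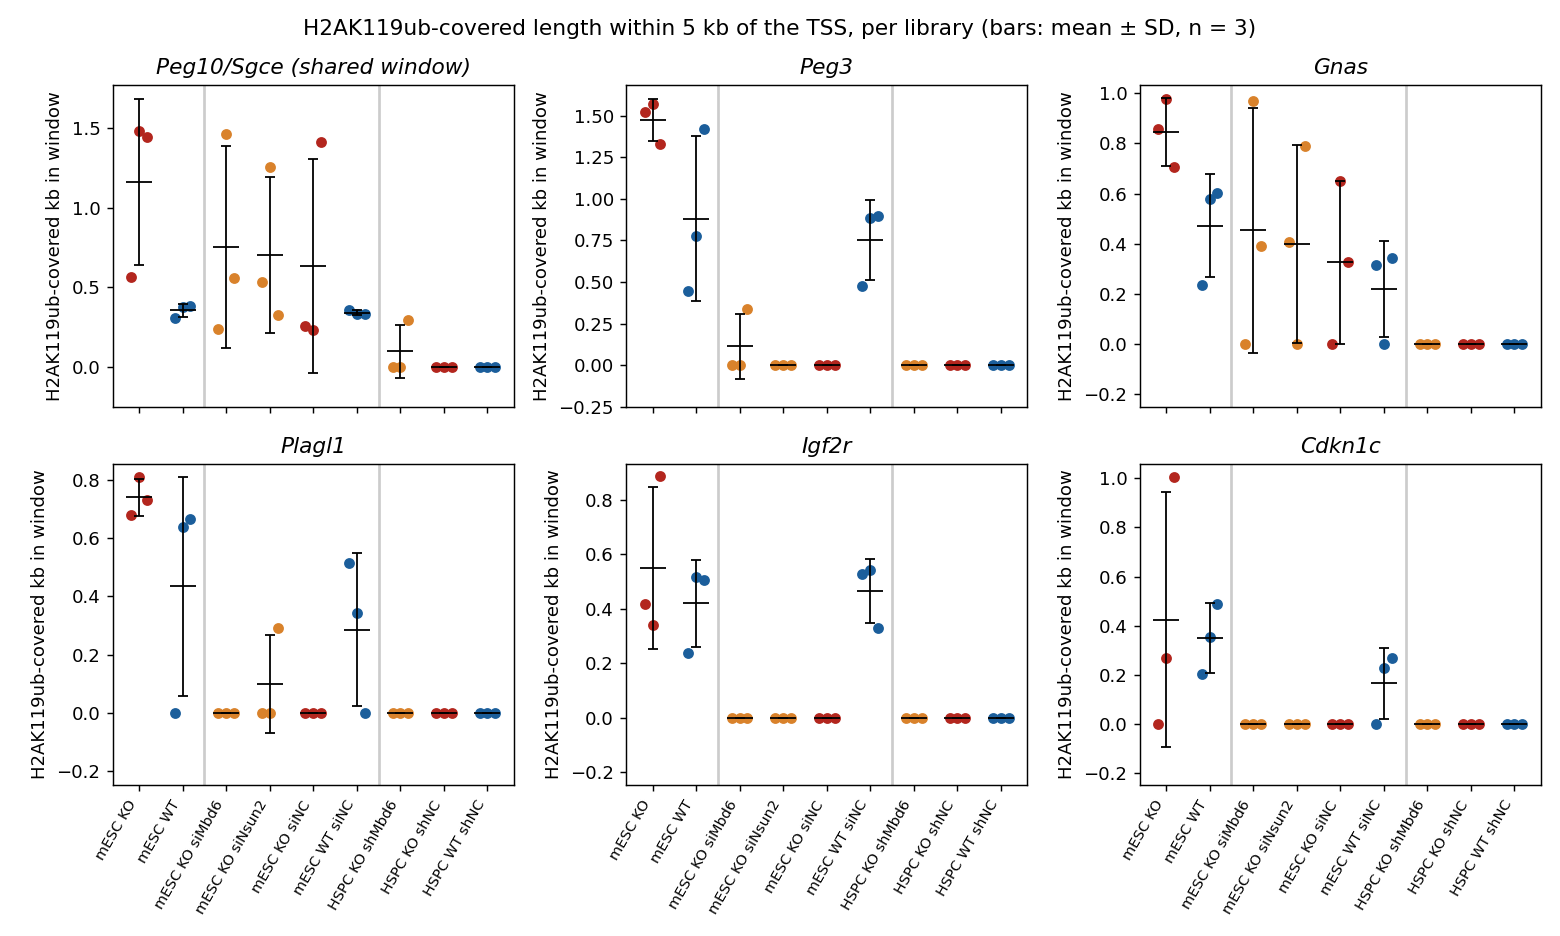
H2AK119ub-covered length (kb) within 5 kb of the TSS for 6 loci, by mouse group. Points are libraries and bars the mean ± SD (n = 3; a lower SD end can fall below 0, which no library can). The Peg10/Sgce window is above 0 in all 18 mESC libraries, while the Igf2r window is at 0 in all 9 siRNA-treated KO libraries.

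In siRNA-treated mESCs the loci parted. With siNC, no KO library had a peak in the Peg3 window (0 kb in 3 of 3), against 0.477, 0.884 and 0.897 kb in WT libraries. The difference was -0.753 ± 0.119 kb (SE, adjusted p = 0.000341, limma). The Igf2r window was also at 0 in all KO siNC libraries, against 0.527, 0.541 and 0.331 kb in WT siNC libraries, a difference of -0.466 ± 0.0498 kb (SE). Igf2r passed the filter on coverage through the WT siNC libraries alone, so that its difference could only be negative, and its p-value (adjusted p = 2.49e-05, limma) is no support for it. Peg3 passed the filter through the WT siNC libraries and 1 siMbd6 library. With KO siNC at 0 its difference could not be positive, and its p-value is no support either. Libraries that are all at 0 also contribute no variance, which can make a p-value too small.

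The Peg10/Sgce window kept a peak in every library. It held 0.259, 0.235 and 1.41 kb in KO siNC, against 0.358, 0.335 and 0.33 kb in WT siNC. The difference was 0.294 ± 0.396 kb (SE, adjusted p = 0.505), set by KO siNC replicate 3, and was -0.094 kb without that library. These KO peaks were weak. Among peaks with a mean -log10 q of at least 5, which 22.0 to 24.1% of KO siNC and 36.5 to 40.2% of WT siNC peaks reached, the window was at 0 in KO siNC and the difference was -0.341 kb. The window then passed the filter through WT siNC alone and no test of it is given. Persistence of the peak thus held for the peaks as deposited and not for the stricter set.

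Gnas held 0, 0.651 and 0.329 kb in KO siNC, against 0.317, 0 and 0.342 kb in WT siNC, and the difference of 0.107 ± 0.278 kb was not called (adjusted p = 0.728). Plagl1 was at 0 in all KO siNC libraries, against 0.514, 0.344 and 0 kb in WT siNC, with a difference of -0.286 ± 0.12 kb (adjusted p = 0.0546, limma). It was called without WT siNC replicate 3, its WT library at 0 (-0.429 kb, 0.0148). With KO siNC at 0 the Plagl1 difference could not be positive, so neither p-value is support for it. Cdkn1c was at 0 in KO siNC, against 0, 0.227 and 0.27 kb in WT siNC, and was too rarely covered to be tested.

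Of the 6 members tested, 2 (Peg3 and Igf2r) were called, both lower in KO and both with a sign fixed by KO siNC libraries at 0. Of all 10756 windows 72.1% were called, 7732 lower and 23 higher. With Peg10 and Sgce counted as 1 locus, the median difference of the 5 loci was that of Plagl1, -0.286 kb, and that of all windows was -0.418 kb. Covered length was lower in these KO libraries as a whole, at 3.47 ± 1.43 Mb in KO siNC and 14.4 ± 3.79 Mb in WT siNC (SD, n = 3 each), and the part of that in the members' values was not tested. With libraries scaled to equal covered length, 4136 windows were called, 3852 lower and 284 higher, and the median moved to -0.145 kb. The scaled differences were -0.327 kb for Peg3 and -0.221 kb for Igf2r, both still called, -0.151 kb for Plagl1, 0.368 kb for Gnas and 0.947 kb for Peg10/Sgce, the last 3 not called.

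**Figure D2:**
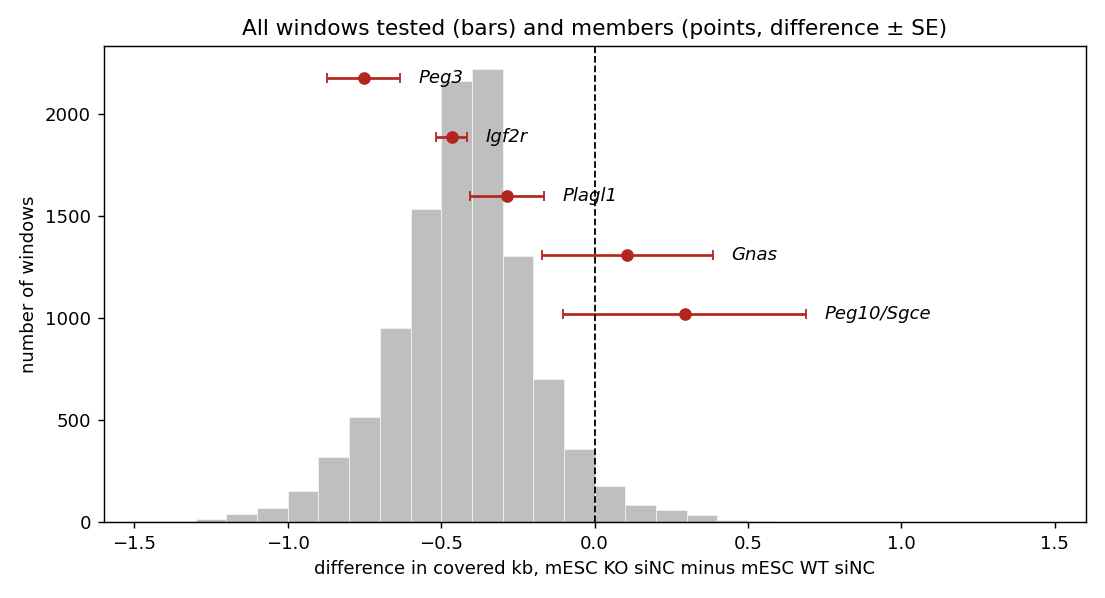
Number of windows (bars) by the difference in covered kb, KO siNC minus WT siNC mESCs, over 10756 windows, and the members' differences ± SE (points, whose height has no meaning). Peg3 (-0.753 kb) and Igf2r (-0.466 kb) lie with most windows below 0, and Gnas and Peg10/Sgce lie above 0 with errors that span it.

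Knockdown of Mbd6 in KO mESCs called 0.177% of all windows and knockdown of Nsun2 0.0186%, and 0 of the 6 members tested in either, also 0 at an unadjusted p under 0.05. These comparisons use the same KO siNC libraries as control. The Peg10/Sgce window held 0.238, 1.46 and 0.561 kb with siMbd6 and 0.534, 1.26 and 0.325 kb with siNsun2, against the KO siNC values above, differences of 0.119 ± 0.396 kb and 0.071 ± 0.396 kb (SE, adjusted p = 1 by limma for each). The spread within each group was as wide as any difference. Igf2r remained at 0 in all 6 knockdown libraries, and Peg3 held 0.338 kb in 1 siMbd6 library and 0 in the other 5. Gnas held 0, 0.971 and 0.39 kb with siMbd6 and 0.407, 0 and 0.788 kb with siNsun2. Grb10 was covered in its window only with siNsun2, at 0, 0.236 and 0.245 kb, and Plagl1 held 0.292 kb in 1 siNsun2 library.

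The width of the Peg10 peak split the libraries. It was 1.26 to 1.48 kb in 5 of the 12 KO mESC libraries, with or without siRNA, and in 0 of the 6 WT libraries, where it was 0.31 to 0.383 kb. The 5 wide peaks came from 4 groups, 2 from untransfected KO and 1 each from KO with siMbd6, siNsun2 and siNC. The 2 from untransfected KO belong to the comparison that was in view when the members were chosen. The share of all windows with wide peaks in KO libraries alone was not computed, so these counts are a description. Replicate 1 libraries, which held the fewest peaks in every mESC group, had no wide peak. The remaining KO libraries had narrow peaks at the same place, apart from siMbd6 replicate 3 and siNsun2 replicate 3, whose peaks lay at 0.73 to 1.29 kb and 0.612 to 0.936 kb from the TSS and did not reach the shared string. The fold enrichment of these peaks over the background of their own library had a median of 4.88 over the 19 mouse libraries with one and a highest value of 7.71, in an untransfected WT library.

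**Figure D3:**
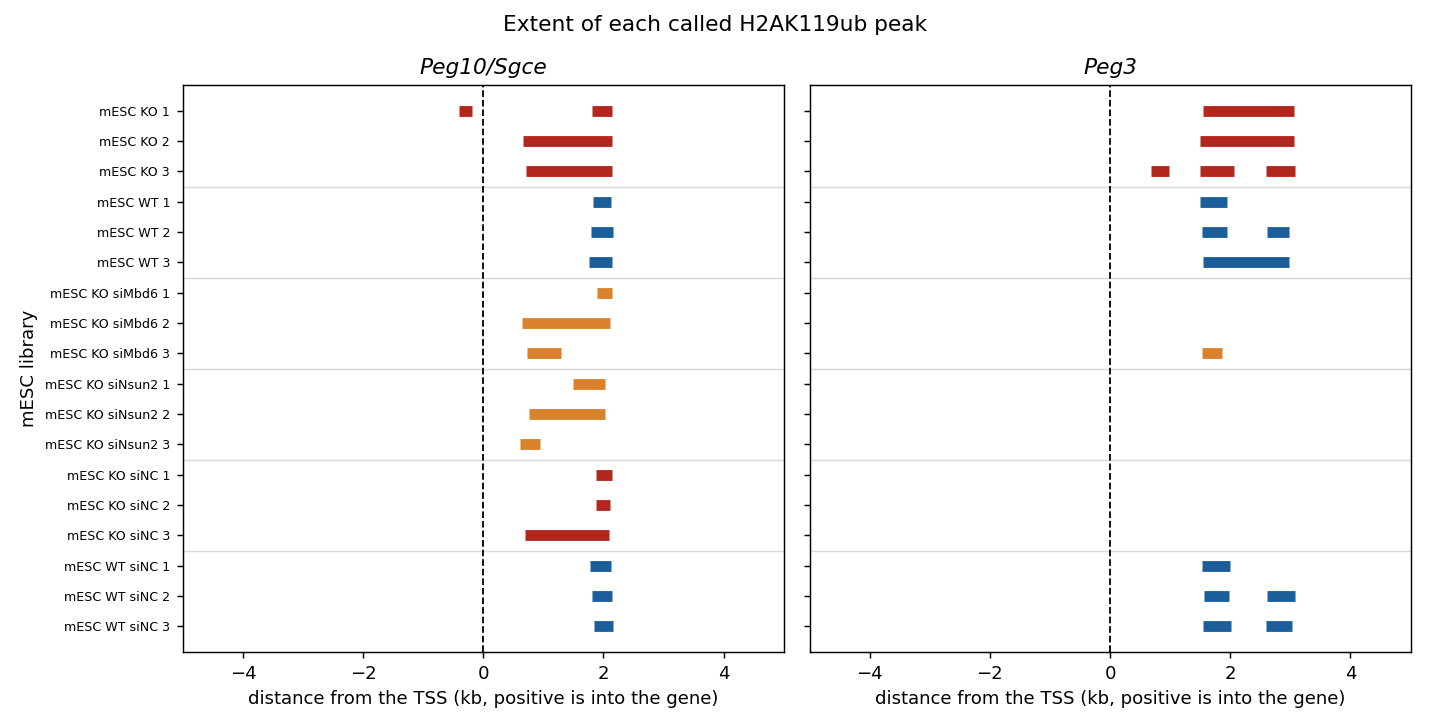
Extent of each H2AK119ub peak (bars) near Peg10/Sgce and Peg3 in the 18 mESC libraries (rows), as distance from the TSS in kb. The Peg10 peaks end between 2.02 and 2.16 kb in 16 rows and start between 0.643 and 0.766 kb in 5 of these, all KO, and Peg3 has peaks in 1 of the 9 siRNA-treated KO rows.

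Windows with a peak in all 18 mESC libraries numbered 534 of 21911 (2.44%), and Peg10 and Sgce were the only members among them. Of 9561 windows covered in all 3 WT siNC libraries, 11.4% were covered in all 3 KO siNC libraries and 56.2% in none. Among the members, Peg10 and Sgce belonged to those kept and Peg3 and Igf2r to those lost. The window leaves out internal promoters, so all peaks over the members' bodies and windows were also joined into regions. There were 41 such regions in mouse libraries, and 25 of them had a peak in at least 3 libraries.

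Grb10, an adaptor protein that restrains growth factor signalling, had no peak at its annotated start in most libraries, but a region over an internal promoter was marked in all 18 mESC libraries. This region, at chr11:12025468-12026818 (mm10, centred 12539 bp inside the gene), had the highest observed to expected ratio of CpG of the 25 regions, 1.04, beside a median of 0.417 over all 41486 regions in at least 3 mESC libraries. It held 0.549, 1.21 and 1.13 kb of peaks in untransfected KO, against 0.467, 0.509 and 0.574 kb in WT. It held 0.549, 0.543 and 0.391 kb in KO siNC, against 0.593, 0.739 and 0.54 kb in WT siNC. The values with siMbd6 were 0.448, 0.51 and 0.51 kb, and with siNsun2 0.416, 0.328 and 1.01 kb. No HSPC library had a peak there. The peaks of this region were mostly weak, with a median fold enrichment of 3.27. Their median rank was the 7.26 percentile of the peaks of their own library (1.36 to 47.25). Of the 68268 regions of the mESC libraries, 961 had a peak in all 18 (1.41%).

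Other Grb10 regions did not persist. The region 89724 bp inside the gene had a peak in all 9 libraries of untransfected KO, untransfected WT and WT siNC mESCs, and in 0 of the 9 siRNA-treated KO libraries. Over the whole gene body, Grb10 held 0.549, 0.543 and 1.42 kb in KO siNC, against 1.49, 1.74 and 2.25 kb in WT siNC, a difference of -0.988 ± 0.311 kb (SE, adjusted p = 0.0192, limma). In this gene-body fit, which was chosen after the data were seen, 68.3% of genes were called. The Grb10 call was lost without KO siNC replicate 1 (-0.844 kb, adjusted p = 0.0681), KO siNC replicate 2 (-0.841 kb, 0.0642) or WT siNC replicate 3 (-0.775 kb, 0.0755), and the sign turned when libraries were scaled to equal covered length (0.776 kb, 0.152). The gene body of Peg3 gave -0.753 kb (adjusted p = 0.000563), with KO siNC at 0 as in its window, so that this call is no support. The gene bodies of Plagl1 (-0.709 kb, 0.076) and Igf2r (-0.255 kb, 0.321) were not called, although Plagl1 was called without WT siNC replicate 1 (-0.898 kb, 0.0446).

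Igf2r showed peaks at both its own promoter and that of Airn. The region at the Igf2r promoter, chr17:12769584-12770493 (mm10), had peaks in all 9 untransfected and WT siNC mESC libraries and in none of the 9 siRNA-treated KO libraries. The regions beside the Airn start, in the body of Igf2r, behaved otherwise. Each of the 18 mESC libraries had a peak within 5 kb of the Airn TSS. That window held 1.06 ± 0.105 kb in untransfected KO and 0.499 ± 0.0878 kb in WT, and 0.472 ± 0.194 kb in KO siNC and 0.727 ± 0.402 kb in WT siNC (SD, n = 3 each). The stretch with the TGCCGC motifs shown above lies in the region of this pair with more libraries, with peaks in 14 of 18 mESC libraries. Kcnq1ot1, the antisense RNA that silences Cdkn1c and its neighbours on the paternal copy, was covered in all 18 mESC libraries too, while the Cdkn1c window was at 0 in all 9 siRNA-treated KO libraries.

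**Figure D4:**
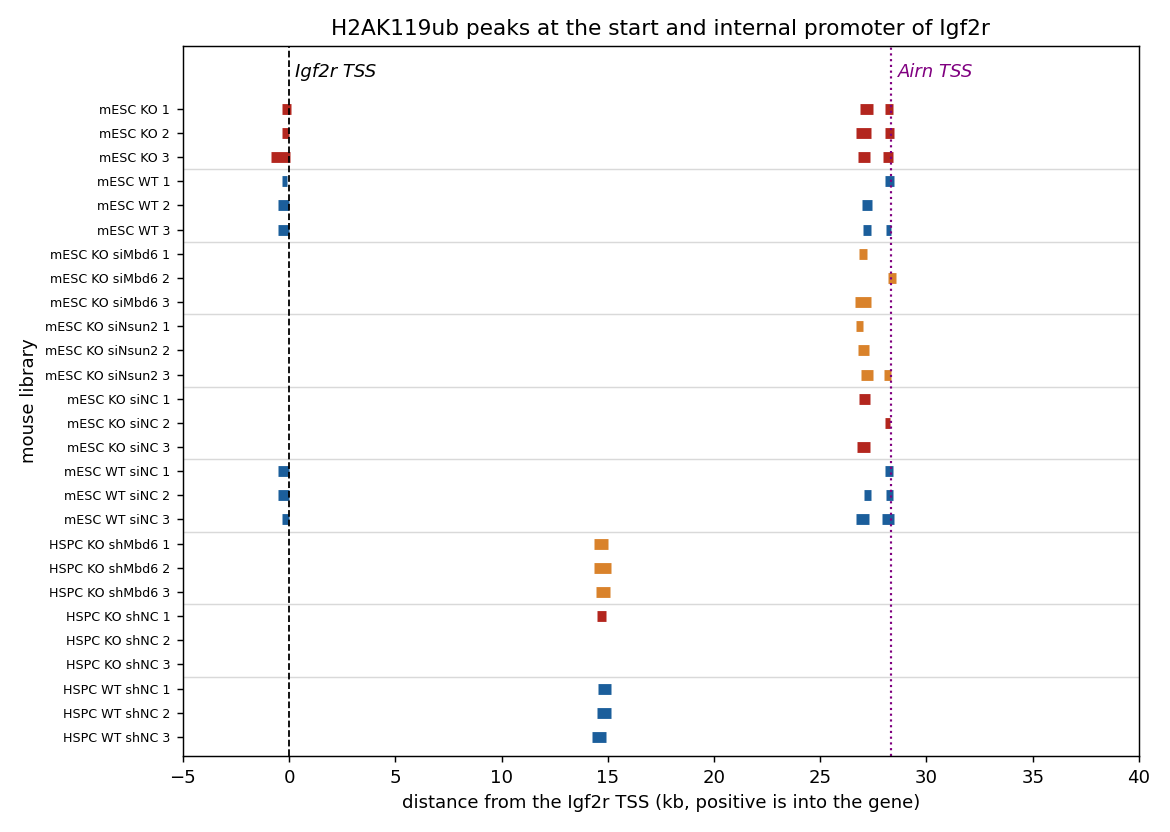
H2AK119ub peaks (bars) from 5 kb before to 40 kb inside Igf2r in the 27 mouse libraries (rows), as distance from the Igf2r TSS in kb, with the Igf2r and Airn starts as lines. siRNA-treated KO mESC rows lack the peak at 0 kb but have one near the Airn start, and 7 of the 9 HSPC rows have a peak between 14.3 and 15.2 kb alone.

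Plagl1 kept its internal promoter more often than its annotated start. The internal region had peaks in 15 of 18 mESC libraries, at 0.558, 0.551 and 0.825 kb in untransfected KO, against 0.528, 0.658 and 0.508 kb in WT, and at 0, 0.658 and 0.532 kb in KO siNC, against 0, 0.524 and 0.553 kb in WT siNC. In Gnas, the region over an internal promoter 43087 bp inside the locus, at chr2:174326796-174328017 (mm10), had peaks in 15 mESC libraries, including 3 of 3 with KO siNC, 2 of 3 with siMbd6 and 1 of 3 with siNsun2. The Gnas region at the start of Nespas, an antisense RNA of this locus, had peaks in 2 of 3 KO siNC libraries and 0 of 6 knockdown libraries. Mest, a hydrolase-fold gene expressed from the paternal copy, had a region 9476 bp inside the gene with peaks in 8 mESC libraries. Snrpn, a splicing factor gene at the locus of the Prader-Willi syndrome, had no listed peak in its window or body in any mouse library.

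Among the 7 member regions marked in all 9 untransfected and WT siNC mESC libraries, 2 (Peg10 and the internal promoter of Grb10) had peaks in all 9 siRNA-treated KO libraries, 3 in some and 2 in none. Over all 13004 such regions the shares were 7.39%, 57.2% and 35.5%. For the 23 member regions of mESCs, including those not marked in all other libraries, the median CpG ratio was 0.879 for the 2 in all 9 siRNA-treated KO libraries, 0.6 for the 11 in some and 0.273 for the 10 in none. The medians over the 13004 regions, a narrower selection, were 0.514, 0.561 and 0.514. Of the 7 member regions in that selection, the 2 in all 9 had ratios of 0.721 and 1.04. Those in some had 0.327, 0.6 and 0.78, and those in none had 0.189 and 0.779.

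**Figure D5:**
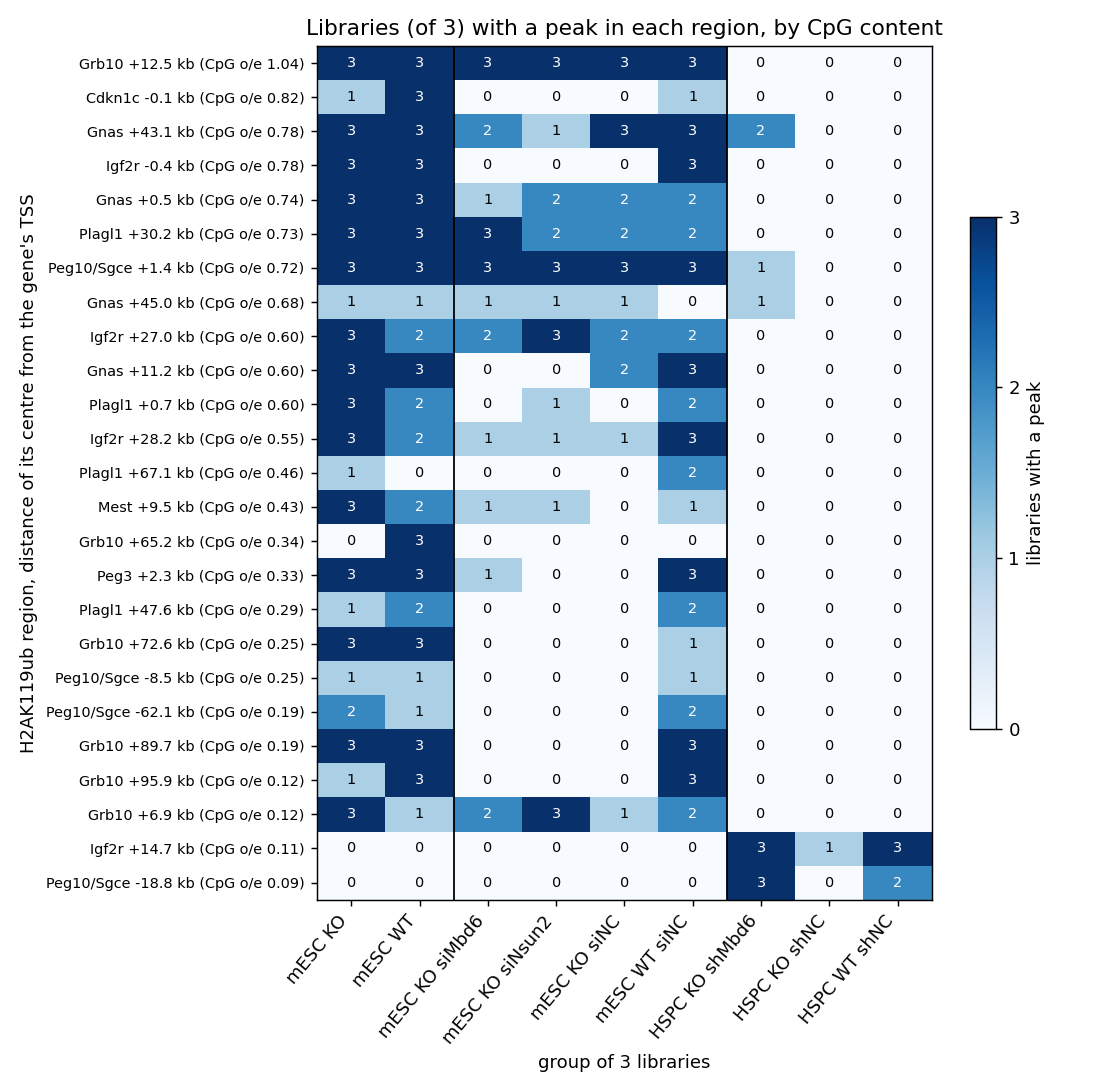
Number of libraries (of 3, colour and digit) with a peak in each of the 25 member regions found in at least 3 mouse libraries, by group, ordered from high to low observed to expected CpG ratio (CpG o/e). Peg10/Sgce at 1.4 kb and Grb10 at 12.5 kb are at 3 in every mESC column, and 10 rows are at 0 in all 3 siRNA-treated KO columns while marked in other mESC columns.

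In HSPCs the member windows were nearly empty. Of 9 libraries, 1 (KO shMbd6 replicate 3, 0.292 kb at Peg10/Sgce) had a peak in a member window, and 0 members could be tested there, where 22.7% of 4242 windows were called in KO against WT and 72.1% in shMbd6 against shNC. The members' peaks of HSPCs lay elsewhere in the genes. A region 14716 bp inside Igf2r, at chr17:12754494-12755400 (mm10, intronic), was found in HSPCs and in 0 of 18 mESC libraries. Its peaks were weak, with a median fold enrichment of 2.94. They ranked between the 1.52 and 6.93 percentile of the peaks of their own library. With shMbd6 in KO the region held 0.686, 0.809 and 0.698 kb, against 0.421, 0 and 0 kb in KO shNC. KO shNC was in turn set against WT shNC, at 0.631, 0.662 and 0.63 kb. All KO shNC libraries were below all others. Of 1664 windows compared in HSPCs, 72.9% had every KO shNC library below every WT shNC library.

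In the gene-body fit Igf2r was lower in KO shNC than in WT shNC by -0.501 ± 0.11 kb (SE, adjusted p = 0.0218, limma), where 13.3% of genes were called, and higher with shMbd6 than with shNC by 0.591 ± 0.11 kb (adjusted p = 0.0045), where 53.4% were called. The first call was lost without KO shNC replicate 2 (-0.431 kb, 0.0761), KO shNC replicate 3 (-0.431 kb, 0.0778) or WT shNC replicate 2 (-0.49 kb, 0.0581) and when scaled to equal covered length (-0.22 kb, 0.699). The second kept its call without each library but not when scaled (-0.0441 kb, 0.923).

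Sgce had an HSPC region inside the gene, at chr6:4728228-4728705 (mm10, intronic). It held 0.33, 0.379 and 0.389 kb with shMbd6, against 0 kb in all KO shNC libraries, and KO shNC was set against 0.303, 0 and 0.288 kb in WT shNC. The Sgce body was higher with shMbd6 by 0.366 ± 0.0785 kb (adjusted p = 0.00808, limma), a call lost when scaled (0.21 kb, 0.123). With KO shNC at 0 this difference could not be negative. Its p-value can also be too small and is no support for it. The Sgce body was not called in KO against WT (-0.197 kb, 0.174), except without WT shNC replicate 2 (-0.296 kb, 0.00326). With KO shNC at 0 that difference could not be positive, so the exception is no support either. Gnas had 0.258, 0.293 and 0.316 kb with shMbd6, against 0 in KO shNC, and 0 in WT shNC too. Its body passed the filter through the shMbd6 libraries alone, so that the difference of 0.289 kb could only be positive and no test of it is given. Kcnq1ot1 was covered in 3 of 3 shMbd6 and 0 of 3 KO shNC libraries, and in 3 of 3 WT shNC libraries.

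Total covered length in HSPCs moved with these values, at 3.73 ± 0.267 Mb with shMbd6, 0.664 ± 0.0165 Mb with KO shNC and 2.01 ± 0.194 Mb with WT shNC (SD, n = 3 each). Peaks on the Drosophila spike-in sequence numbered 85 to 95 with shMbd6, 205 to 231 with KO shNC and 48 to 56 with WT shNC. The part of either in the members' values was not tested.

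In K-562 cells, PEG10 and SGCE were the only member windows with a peak in more than 1 library. The shared window held 0.644, 0.663 and 0.716 kb with siMBD6 and 0.723, 0.678 and 0.673 kb with siNSUN2, against 0.687, 0.649 and 0.665 kb in TET2 KO siNC. KO siNC was in turn set against 0.642, 0.476 and 0.569 kb in WT siNC. KO siNC was above WT siNC in all libraries, by 0.105 ± 0.0737 kb, which was not called (SE, adjusted p = 0.85, limma), where 0.122% of 2457 windows were called. The knockdown differences were 0.00733 ± 0.0737 kb and 0.0243 ± 0.0737 kb, also not called, where 0% of windows were called in either (0 of 2457, with 264 and 362 at an unadjusted p under 0.05).

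The PEG10 peak was among the strongest of each library, with a fold enrichment of up to 8.37 and a rank between the 91.0 and 99.2 percentile of the peaks of its own library. Windows with a peak in all 12 K-562 libraries numbered 277 of 20007 (1.38%), which include PEG10 and SGCE.

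IGF2R carried a K-562 region 132679 bp inside the gene, at chr6:160101414-160102108 (hg38, 695 bp, no annotated exon), in all 12 libraries. It held 0.564, 0.522 and 0.427 kb with siMBD6 and 0.479, 0.502 and 0.411 kb with siNSUN2, against 0.345, 0.296 and 0.289 kb in KO siNC. KO siNC was set against 0.428, 0.506 and 0.539 kb in WT siNC. Every KO siNC library was below every library of the other groups. The share of all K-562 genes with such a separation, here or at PEG10, was not computed. Over the IGF2R body the differences were -0.181 ± 0.049 kb for KO against WT, 0.194 ± 0.049 kb for siMBD6 and 0.154 ± 0.049 kb for siNSUN2. None was called across all genes (adjusted p = 0.469, 0.164 and 0.198 by limma), where 0.202%, 0.875% and 1.14% of genes were called. The 3 comparisons share the KO siNC libraries, and covered length per library was 1.23 ± 0.221 Mb with siMBD6, 1.52 ± 0.323 Mb with siNSUN2, 0.884 ± 0.0701 Mb with KO siNC and 0.904 ± 0.169 Mb with WT siNC (SD, n = 3 each). Scaled to equal covered length, the differences were -0.237 kb for KO against WT, 0.0669 kb for siMBD6 and -0.047 kb for siNSUN2.

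BAP1 had no peak in any member window or gene body in either WT mESC library, while 131 and 152 of 21911 windows held one (0.598% and 0.694%). The nearest BAP1 peak to a member TSS lay 22.6 kb away, at Snrpn, and the farthest 2276 kb away, at Gnas. Where a factor gave so few peaks, an empty window was not detectable as bound and is not shown to be unbound.

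Of the 59 other imprinted genes, 35 were tested in KO siNC against WT siNC mESCs. There 17 of 35 were called, all lower, beside 72.1% of all windows, with a median of -0.336 kb beside -0.418 kb. Usp29, which shares the Peg3 window, gave -0.753 kb, Ube3a, a ubiquitin ligase, -0.746 kb, Gab1, a docking protein, -0.73 kb and Ascl2, a trophoblast transcription factor, -0.694 kb. Ube3a, Cd81, Tspan32, Commd1, Mcts2 and Pon3 passed the filter through the WT siNC libraries alone, and Usp29, Gab1, Trappc9 and Ppp1r9a were at 0 in KO siNC. The differences of these genes could not be positive, and their calls are no support. In untransfected cells 0 of 43 were called and in the mESC knockdowns 0 of 35. In HSPCs 1 of 9 was called in KO against WT, Inpp5f at -0.456 kb, beside 22.7% of all windows. With shMbd6 5 of 9 were called higher, beside 72.1% of all windows called. Among them were Trappc9 (0.538 kb), Nap1l4 (0.53 kb), Inpp5f (0.521 kb) and Ube3a (0.487 kb). Ube3a and Igf2 passed the filter through the shMbd6 libraries alone, so that their differences could only be positive. Trappc9 and Nap1l4 were at 0 in KO shNC, so that their differences could not be negative. The calls of these genes are no support. In K-562 cells 0 of 4 were called in each comparison.

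Over the 9 mouse group means of covered length in windows, the genes most like the summed members were Ahr (Pearson r = 0.989), Lyn (0.989) and Alppl2 (0.987), of 15666 genes at least 1 Mb from a member. The groups share libraries' covered length, so these values are a description.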

How the data were processed

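H2AK119ub was profiled in 39 CUT&Tag libraries and BAP1 in 2. The authors trimmed reads (Trimmomatic 0.39), aligned them to mm10 or hg38 with Drosophila spike-in sequence (Bowtie2 2.4.1), removed duplicates (Picard) and called broad peaks per library with MACS2. The deposited lists give each peak's position, a score, a fold enrichment (a ratio over the library's own background) and −log10 p and q values, all computed by the authors. Spike-in scaling is not part of these lists, so lengths are compared as listed.

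Covered bases were computed in Python 3.11.15 (NumPy 2.4.6, pandas 2.3.3) for windows of 5 kb to each side of GENCODE TSSs (vM21, v44), and differences were fitted with limma 3.58.1 in R 4.3.3 (tables were read with data.table, version 1.17.8). Each experiment had 1 model with all its H2AK119ub groups, for windows with a peak in 3 or more of its libraries, and calls had a two-sided Benjamini-Hochberg adjusted p under 0.05. Overlap lengths were compared with those of bedtools 2.31.1, and the limma step was tested on simulated data. Figures used matplotlib 3.10.9. The members, lists and tests were chosen with earlier results of these data known, and the gene-body fit after they were seen. The other imprinted genes named with a value are up to 4 called windows per comparison with the largest difference. The similar genes are the 3 with the highest correlation with the summed members. Alternatives were scaling to equal covered length, a replicate block, no filter, peaks of −log10 q of at least 5, peaks in at least 2 replicates, a window of 2 kb to each side and leaving out each library. Knockdown of the targeted genes cannot be checked with this mark.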

Additional observations from a re-analysis of the deposited data

Results flagged for a closer look

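In the Igf2r gene body the KO minus WT difference had opposite signs in untransfected mESCs and in HSPCs. In untransfected mESCs every KO library (1.04, 1.18 and 1.10 kb) was above every WT library (0.441, 0.456 and 0.6 kb), a difference of 0.607 kb. The members were chosen with this comparison in view, so the value is a description and no test of it is given. In HSPCs every KO shNC library (0.421, 0 and 0 kb) was below every WT shNC library (0.631, 0.662 and 0.63 kb), a difference of -0.501 kb whose call was lost on scaling to equal covered length (-0.22 kb, adjusted p = 0.699 by limma). In siNC-treated mESCs the difference was -0.255 kb and was not called, and it turned to 0.75 kb on scaling to equal covered length. Over windows, 8.09% had every KO library above every WT library in untransfected mESCs. In HSPCs 72.9% of windows had every KO shNC library below every WT shNC library. The difference between the cell types was not tested, and the peaks lay in different places, near the Airn start in mESCs and 14716 bp inside the gene in HSPCs. By fold enrichment the HSPC peaks were weak, between the 1.52 and 6.93 percentile of their own library.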

How the results depend on the processing

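Scaled to equal covered length, windows called were 0 (untransfected), 4136 (siNC mESC), 10 (siMbd6), 8 (siNsun2), 1387 (shMbd6 HSPC), 30 (K-562 KO), 1 (siMBD6) and 1 (siNSUN2), and PEG10 turned to -0.222 kb (siMBD6) and -0.328 kb (siNSUN2). Gene bodies turned to 0.104 kb (Plagl1), 0.776 kb (Grb10) and 0.75 kb (Igf2r) in siNC mESCs, -0.0441 kb (Igf2r, shMbd6) and -0.047 kb (IGF2R, siNSUN2). With the replicate block 0 windows were called in untransfected mESCs, with siNsun2 and in K-562 KO, and no member's call changed. Same-numbered libraries correlated at -0.0374 to 0.239 in their deviations, so the numbers were not taken to pair them. In mESCs the replicate 1 libraries correlated at 0.109 to 0.239 and held the fewest peaks of every group. A batch or depth shared by them was not tested.

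With stricter peaks the counts were 21 (untransfected), 4176 (siNC mESC), 10 (siMbd6), 6 (siNsun2), 304 (HSPC KO), 1011 (shMbd6), 7 (siMBD6) and 54 (siNSUN2), Peg10 turned to -0.341 kb in siNC mESCs, and the members' share was 0.223 (KO) and 0.0358 (WT) kb per Mb in untransfected mESCs, 0.0562 in WT siNC and 0 in KO siNC, siMbd6 and siNsun2. With peaks in at least 2 replicates the counts were 331 (untransfected), 188 (siMbd6), 71 (siNsun2), 124 (K-562 KO), 261 (siMBD6) and 418 (siNSUN2), and differences turned to -0.349 kb (Cdkn1c, untransfected), -0.000333 kb (Gnas, siNC) and -0.219 kb (Gnas, siMbd6). Without a filter K-562 counts were 5 (KO) and 11 (siNSUN2). In the narrow window K-562 KO had 0, and PEG10 turned to -0.00967 kb (siMBD6) and -0.000333 kb (siNSUN2). Gene bodies gave 21 (untransfected), 7 (siMbd6), 1 (siNsun2), 605 (HSPC KO), 6 (K-562 KO), 26 (siMBD6) and 34 (siNSUN2), with -0.112 kb (Cdkn1c, untransfected), -0.225 kb (Gnas, siMbd6) and -0.832 kb (Gnas, siNsun2). The cause was not tested.

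Leaving out each library gave 0 windows in untransfected mESCs, 3107 to 7468 (siNC, lowest without a WT siNC library; members called 1 to 2), 14 to 123 (siMbd6), 0 to 6 (siNsun2), 0 to 2 (K-562 KO) and 0 to 11 (siNSUN2). Differences ranged from -0.214 to 0.288 kb (Cdkn1c) and -0.0403 to 0.234 kb (Igf2r) in untransfected cells, -0.0552 to 0.27 kb (Gnas) and -0.094 to 0.493 kb (Peg10) with siNC, -0.132 to 0.354 kb (Gnas) and -0.235 to 0.506 kb (Peg10) with siMbd6, -0.123 to 0.271 kb (Gnas) and -0.205 to 0.459 kb (Peg10) with siNsun2, and -0.0135 to 0.0225 kb (PEG10, siMBD6). Depth is unknown, so a window listed at 0 may be unmarked or too thinly sequenced.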
